A study of Mus musculus with 6 samples.

Results

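The interferon-inducible GTPases described here are 10 mouse genes, chosen by symbol: 4 guanylate-binding proteins (Gbp2, Gbp3, Gbp5 and Gbp7) and 6 immunity-related GTPases (Irgm1, Irgm2, Igtp, Iigp1, Ifi47 and Tgtp2). All 10 were found in a table of 55291 genes. Transcripts were counted in RNA from marrow flushed out of the femurs of 3 mice labelled P2rx7 knockout (A, B and C) and 3 wild-type mice (WT 1, 2 and 3), 1 library per mouse, all aged 6 to 8 weeks. P2rx7 is an ATP-gated cation channel, and the study asked how its loss bears on bone. The labels give neither the knockout allele nor strain or sex. Totals were 18716704 to 22382281 counts per knockout library and 20037343 to 23575652 per WT library.

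These proteins are dynamin-like GTPases of cell-autonomous immunity, made above all in response to interferon-gamma, with the transcription factor IRF1 among its mediators. Guanylate-binding proteins and effector immunity-related GTPases gather on vacuoles that hold bacteria or parasites and break them open. The IRGM group (Irgm1, Irgm2 and Igtp) sits on host membranes and keeps the effectors inactive there. In marrow, Irgm1 is known from mutant mice as a gene that blood stem cells need under interferon.

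Transcription factors switched on by interferon are known to bind short DNA elements, and the promoter stretches that hold the core of one of them are shown first. In RefSeq windows from 250 bases before to 50 bases after each transcript start (GRCm38.p6), which were at hand for 9 of the 10 members, the core of the interferon-stimulated response element was searched as GAAANNGAAA and the gamma-activated site as TTCNNNGAA, each on both strands. Stretches of 60 bases around the element core follow 5′ to 3′ on the strand of the gene, with capitals for the core on either strand. In the 4 guanylate-binding protein genes it lies on the strand opposite the gene.
Gbp2 (chr3:142620579-142620638, plus strand): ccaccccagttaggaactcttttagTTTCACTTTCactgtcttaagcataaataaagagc
Gbp3 (chr3:142559977-142560036, plus strand): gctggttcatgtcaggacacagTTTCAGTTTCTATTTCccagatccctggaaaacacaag
Gbp5 (chr3:142496744-142496803, plus strand): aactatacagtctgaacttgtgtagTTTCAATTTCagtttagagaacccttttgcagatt
Gbp7 (chr3:142530258-142530317, plus strand): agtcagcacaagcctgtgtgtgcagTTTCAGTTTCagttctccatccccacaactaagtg
Irgm1 (chr11:48871413-48871472, minus strand): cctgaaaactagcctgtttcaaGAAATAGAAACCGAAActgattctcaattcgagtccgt
Irgm2 (chr11:58214888-58214947, plus strand): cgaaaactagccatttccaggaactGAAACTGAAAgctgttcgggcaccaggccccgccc
Igtp (chr11:58199497-58199556, plus strand): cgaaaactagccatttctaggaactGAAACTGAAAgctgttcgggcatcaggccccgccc
Tgtp2 (chr11:49064248-49064307, minus strand): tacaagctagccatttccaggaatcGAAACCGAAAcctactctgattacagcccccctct

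The element core was found in 8 of these 9 members, against 3.99% of the 27025 genes with such a window (1079 genes). It began 30 to 70 bases before the start in 7 of them and 165 bases before it in Gbp5. Gbp3 and Irgm1 each held 2 overlapping copies. The gamma-activated site was found in 5 of the 9 members (Gbp5, Gbp7, Irgm2, Igtp and Tgtp2), against 9.55% of all genes, and nowhere overlapped the element core. In Irgm2, Igtp and Tgtp2 it ended just before the core. The printed stretches of Igtp and Irgm2 were identical at 58 of 60 bases, and their windows at 184 of 270 aligned bases (68.1%). No match was found in the window of Ifi47 or at the other start of Gbp3. A match is a run of letters and not a measured binding site.

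**Figure D1:**
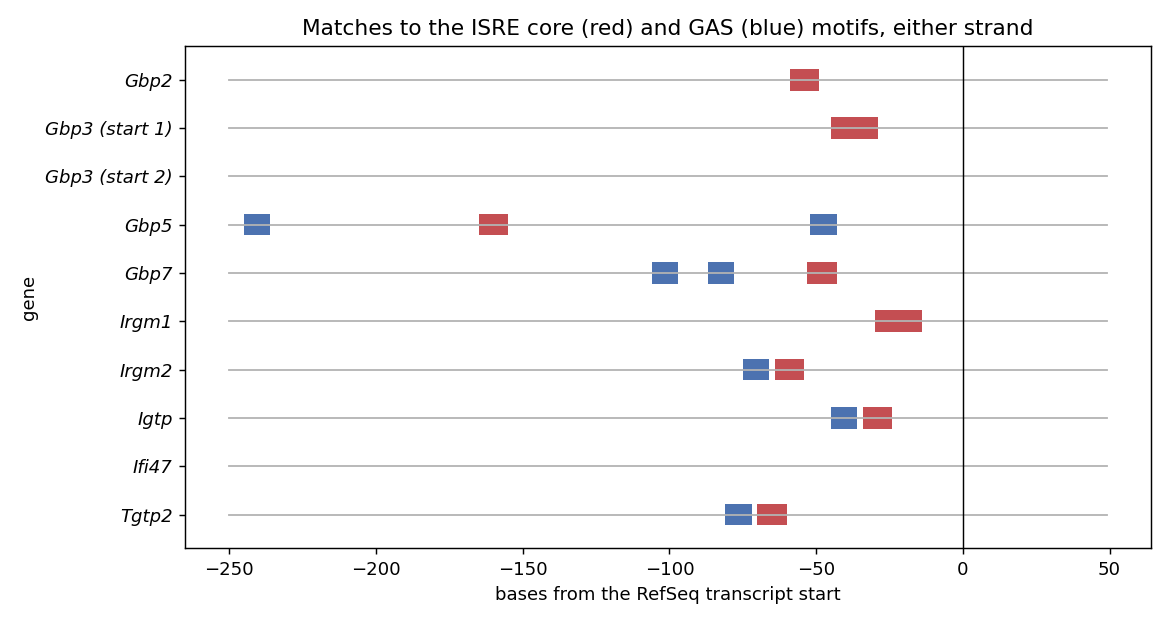
Matches to the interferon-stimulated response element core (red) and the gamma-activated site (blue) on either strand, by distance in bases from the RefSeq transcript start, with 1 row per start of 9 members. In 7 members the core begins 30 to 70 bases before the start, and Ifi47 has no match in the window.

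The members lie in 4 places of the mouse genome (GRCm38), and each deposited span equals that of GENCODE M21. Gbp5, Gbp7, Gbp3 and Gbp2 lie in a cluster on the plus strand of chromosome 3, from 142493978 to 142638008. Irgm1, Tgtp2 and Ifi47 lie on chromosome 11 between 48861968 and 49096974, and Igtp and Irgm2 on chromosome 11 between 58199556 and 58222782. Iigp1 lies on chromosome 18 at 60376027 to 60392634. Exons of Igtp and Irgm2 share 162 bases on the same strand, which is 8.01% of the exon length of Igtp and 4.39% of that of Irgm2, so reads there could belong to either gene. Gbp7 shares 637 exon bases, 11.35% of its exon length, with Gm43802 on the same strand, which had 0 counts in every library. Ifi47 shares 111 exon bases with Olfr56, which had 36 to 54 counts per library against 635 to 865 of Ifi47. Tgtp2 has a near-identical copy, Tgtp1, with 1 to 7 counts per library against 73 to 108 of Tgtp2, and how reads were divided between the copies is unknown, so the value of Tgtp2 is uncertain.

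The labels call the tissue bone marrow, and the markers of several marrow lineages were nearly absent. The labels name no culture or sorting step, and whether the RNA stands for whole marrow is unsure. All 5 erythroid markers stayed under 10 counts in every library, as did 4 of 6 B cell markers, while the summed level of 8 monocyte and macrophage markers was 3099 to 3429 CPM (counts scaled to library size) in knockouts and 3136 to 3188 CPM in WT. That of 7 marrow stromal markers was 19598 to 20889 CPM in knockouts and 18081 to 21745 CPM in WT. P2rx7 itself had 6.63, 6.37 and 6.24 FPKM (counts scaled to exon length and library size) in knockouts A, B and C, against 10.1, 10.2 and 10.5 FPKM in WT 1, 2 and 3. It fell by 0.67 ± 0.05 on the log2 scale (SE; adjusted p = 0.0109, edgeR), while an exact permutation of the genotypes (two-sided) reached its own minimum of p = 0.1. P2rx7 counts thus remained in every knockout library (722 to 876, against 1207 to 1453 in WT), at 0.628 of the WT level, so that gene counts do not show the loss that the label names. The adjusted p was 0.0763 without knockout B and 0.0973 without knockout C. Gh, a pituitary hormone gene, had 23, 0 and 0 counts in the knockouts, in the order A, B, C, against 54, 82 and 75 in the WT libraries. Alb, a liver gene, had 46 counts in knockout B, 36 in knockout C and none elsewhere, so knockouts B and C stand apart from the other 4 libraries in these traces.

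All 10 members were expressed, and all passed the filter on low counts. FPKM is scaled to the annotated exon length, so genes compare only as far as that length holds. By mean FPKM over the 6 libraries, the order was Gbp2 (20.7), Irgm2 (15.5), Irgm1 (15.5), Ifi47 (14.8), Igtp (11.2), Iigp1 (8.27), Gbp3 (5.69), Gbp7 (5.58), Tgtp2 (1.34) and Gbp5 (1.09). Neighbours in this order overlapped in their ranges over libraries, except that the lowest Gbp7 value (4.95 FPKM) was above the highest Tgtp2 value (1.59 FPKM). Gbp2, the most abundant, was above 95.6% of all genes in the table, and Gbp5, the least abundant, above 77.9%. Within a gene, the highest library was 1.18 times the lowest for Irgm1 and 4.53 times for Iigp1, with the other 8 between 1.25 and 2.22 times.

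Between genotypes, 6 of the 10 members had higher levels in every knockout library than in any WT library, and none had the opposite order. The 6 were Iigp1, Gbp3, Ifi47, Gbp5, Gbp2 and Irgm2. Of all 15478 genes tested, 11.5% had all knockout values above all WT values. No member passed the threshold (edgeR quasi-likelihood, Benjamini-Hochberg adjusted over all genes, 0.05), a rule by which 0.0581% of all genes were called higher in knockouts. DESeq2 called 2 members higher (Gbp3 and Ifi47), against 1.31% of 19061 genes. Without the filter on low counts, edgeR called those and Iigp1 higher, against 1.71% of 30301 genes. At an unadjusted p below 0.05 the same 6 members were higher, against 8.35% of all genes. The median log2 fold change over the 10 members was 0.24, and 9 of the 10 were above 0, where the median over all genes tested was 0.00. With knockout A as the only knockout, against the 3 WT libraries that share its Gh trace, the members' median was 0.17. Log2 fold changes then ran from -0.17 in Tgtp2 to 1.002 in Iigp1, and 8 of the 10 were above 0. Those of Ifi47, Gbp5 and Gbp7 were 0.25, 0.18 and 0.05. Only that of Gbp2 (0.29) was above its value over all 6 libraries. A change in the number of cells of a type and a change in RNA per cell cannot be told apart in such bulk libraries.

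**Figure D2:**
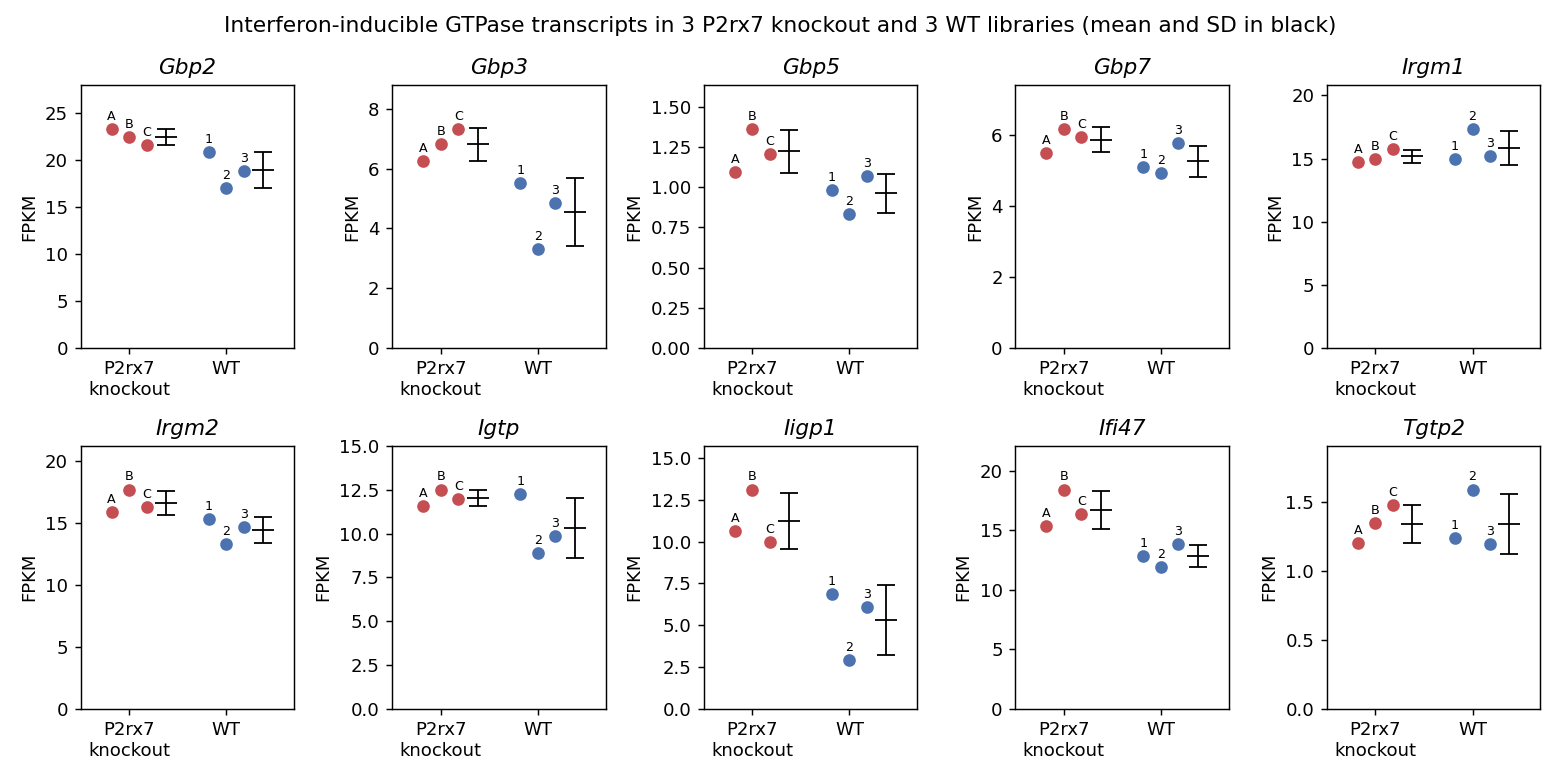
FPKM of each member in knockouts A, B and C (red) and WT 1, 2 and 3 (blue), 1 point per library, with the mean and SD of each genotype in black beside the points. The genotypes do not overlap in Iigp1, Gbp3, Ifi47, Gbp5, Gbp2 and Irgm2, and WT 2 is the lowest library in 8 of the 10 panels.

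Among the effector immunity-related GTPases, Iigp1, which in mouse cells coats and disrupts Toxoplasma vacuoles, had the largest log2 fold change of the 10 members. It had 10.6, 13.1 and 9.96 FPKM in knockouts A, B and C, against 6.88, 2.90 and 6.11 FPKM in WT 1, 2 and 3. Every knockout thus lay above every WT library, and WT 2 lay far below the other WT libraries. The log2 fold change was 1.10 ± 0.28 (SE; adjusted p = 0.161, edgeR), a 2.14-fold difference with a 95% interval of 0.46 to 1.73 on the log2 scale. Without WT 2 it was 0.80 (adjusted p = 0.0514). Ifi47, another effector of the same family, had 15.3, 18.4 and 16.4 FPKM in knockouts A, B and C, against 12.8, 11.9 and 13.8 FPKM in WT 1, 2 and 3. The WT libraries of Ifi47 were close together and all below the knockouts, with a log2 fold change of 0.39 ± 0.09 (SE, with an edgeR adjusted p = 0.152), the smallest adjusted p of the 10. Tgtp2, an effector that also coats vacuoles, had 1.199, 1.34 and 1.48 FPKM in knockouts A, B and C, against 1.24, 1.59 and 1.19 FPKM in WT 1, 2 and 3. The genotypes of Tgtp2 overlapped fully, at a log2 fold change of 0.01 with a 95% interval of -0.37 to 0.38 (adjusted p = 0.991, edgeR), so a difference of the size seen in Gbp2 would lie within its interval.

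The IRGM regulators keep the effectors in check, and their log2 fold changes lay between -0.05 and 0.23. Irgm2 had 15.9, 17.7 and 16.3 FPKM in knockouts A, B and C, against 15.3, 13.3 and 14.7 FPKM in WT 1, 2 and 3. Its genotypes did not overlap, at a log2 fold change of 0.21 ± 0.07 (SE, with an edgeR adjusted p = 0.228). Igtp, its neighbour, had 11.6, 12.53 and 11.98 FPKM in knockouts A, B and C, against 12.2, 8.89 and 9.88 FPKM in WT 1, 2 and 3. WT 1 of Igtp lay among the knockouts while WT 2 and 3 lay below them, and the log2 fold change, which was 0.36 without WT 1 and 0.13 without WT 2, was 0.23 ± 0.12 (SE; adjusted p = 0.373, edgeR). Irgm1 had 14.7, 14.97 and 15.8 FPKM in knockouts A, B and C, against 14.9, 17.4 and 15.2 FPKM in WT 1, 2 and 3. Its highest library was WT 2, and its log2 fold change was -0.05 with a 95% interval of -0.20 to 0.09 (adjusted p = 0.716, edgeR).

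Of the 4 guanylate-binding proteins, Gbp3 had the largest log2 fold change. Gbp3, a cytosolic guanylate-binding protein of the same cluster, had 6.27, 6.84 and 7.34 FPKM in knockouts A, B and C, against 5.52, 3.31 and 4.86 FPKM in WT 1, 2 and 3. WT 2 was again lowest and the genotypes did not overlap, with a log2 fold change of 0.59 ± 0.17 (SE, with an edgeR adjusted p = 0.189). Gbp2, which opens vacuoles of bacteria and parasites, had 23.4, 22.5 and 21.7 FPKM in knockouts A, B and C, against 20.9, 17.1 and 18.9 FPKM in WT 1, 2 and 3. The gap between the lowest knockout and the highest WT was small, and the log2 fold change was 0.26 ± 0.08 (SE; adjusted p = 0.2002, edgeR). Gbp5, known to promote assembly of the NLRP3 inflammasome, had 1.10, 1.36 and 1.21 FPKM in knockouts A, B and C, against 0.983, 0.833 and 1.07 FPKM in WT 1, 2 and 3. Knockout A and WT 3 nearly touched, and the log2 fold change was 0.35 ± 0.14 (SE; adjusted p = 0.261, edgeR). Gbp7, known to support the oxidative burst, had 5.50, 6.19 and 5.96 FPKM in knockouts A, B and C, against 5.11, 4.95 and 5.78 FPKM in WT 1, 2 and 3. Knockout A of Gbp7 lay below WT 3, and the log2 fold change was 0.16 ± 0.08 (SE; adjusted p = 0.352, edgeR).

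**Figure D3:**
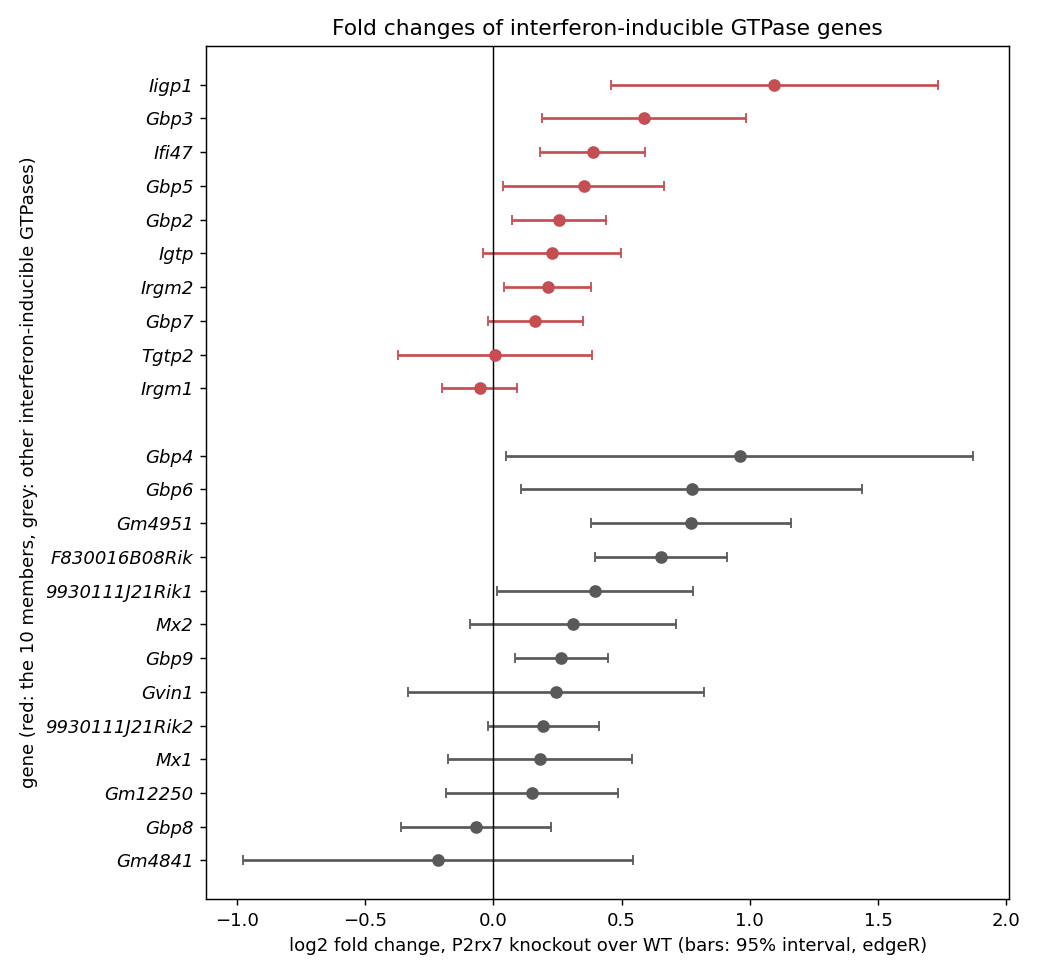
Log2 fold changes of P2rx7 knockout over WT with 95% intervals (edgeR), for the 10 members (red) and 13 other interferon-inducible GTPase genes that passed the filter (grey). The members run from -0.05 in Irgm1 to 1.10 in Iigp1, and the intervals of Gbp7, Igtp, Tgtp2 and Irgm1 include 0.

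Summed over the 4 guanylate-binding proteins, the level was 36.2, 36.9 and 36.2 FPKM in knockouts A, B and C, against 32.5, 26.2 and 30.6 FPKM in WT 1, 2 and 3. Over the 6 immunity-related GTPases it was 69.4, 78.1 and 71.8 FPKM in knockouts A, B and C, against 63.4, 55.9 and 60.9 FPKM in WT 1, 2 and 3. Single libraries recurred at the ends: knockout B was highest in 6 of the 10 members, and WT 2 was lowest in 8. In the other 2, Irgm1 and Tgtp2, WT 2 was the highest library.

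Cxcl12, Kitl and Lepr, genes of marrow stromal cells, also had WT 2 as their lowest library, whereas in the stromal collagen gene Col1a1 it was the highest. The chemokine gene Cxcl12 had 4021, 4897 and 4702 CPM in knockouts A, B and C, against 2696, 1327 and 3168 CPM in WT 1, 2 and 3. Kitl, the stem cell factor gene, had 302, 347 and 297 CPM in knockouts A, B and C, against 248, 110 and 217 CPM in WT 1, 2 and 3, and the leptin receptor gene Lepr had 20.6, 22.6 and 31.3 CPM against 8.77, 3.47 and 14.3 CPM. Over the 6 libraries, Pearson's r of log2 CPM with Kitl was -0.82 for Irgm1 and -0.48 for Tgtp2. For the other members it ran from 0.77 in Gbp7 to 0.99 in Iigp1. This is a description in which the genotype contrast enters both genes. These 3 stromal genes are among 7 marrow stromal markers, of which 5 had log2 fold changes above 0 and none passed the threshold. Cxcl12, Kitl and Lepr had the largest log2 fold changes of the 7 and are outside the rule for named genes. Pearson's r was computed for these 3 alone, so a high r follows in part from that choice. It has no comparison among the other stromal or the macrophage markers. Col1a1 (log2 fold change -0.26) lay wholly below WT in knockouts, and Col1a2 was at -0.09. The macrophage gene Csf1r had 1490, 1422 and 1206 CPM in knockouts A, B and C, against 1389, 1337 and 1415 CPM in WT 1, 2 and 3, which overlapped. Of 8 monocyte and macrophage markers, 6 had log2 fold changes above 0 and none passed the threshold. Cd68 (0.14) and Fcgr1 (0.17) lay wholly above WT in knockouts and Cx3cr1 (-1.57) wholly below. Of 5 plasma cell markers, Jchain and Igha passed the threshold higher, Sdc1 did not (log2 fold change 0.09), and Mzb1 and Tnfrsf17 had at most 2 counts per library. The summed level of the 5 was 267 to 295 CPM in knockouts and 156 to 197 CPM in WT. The part of these cell types in the members' values was not tested.

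**Figure D4:**
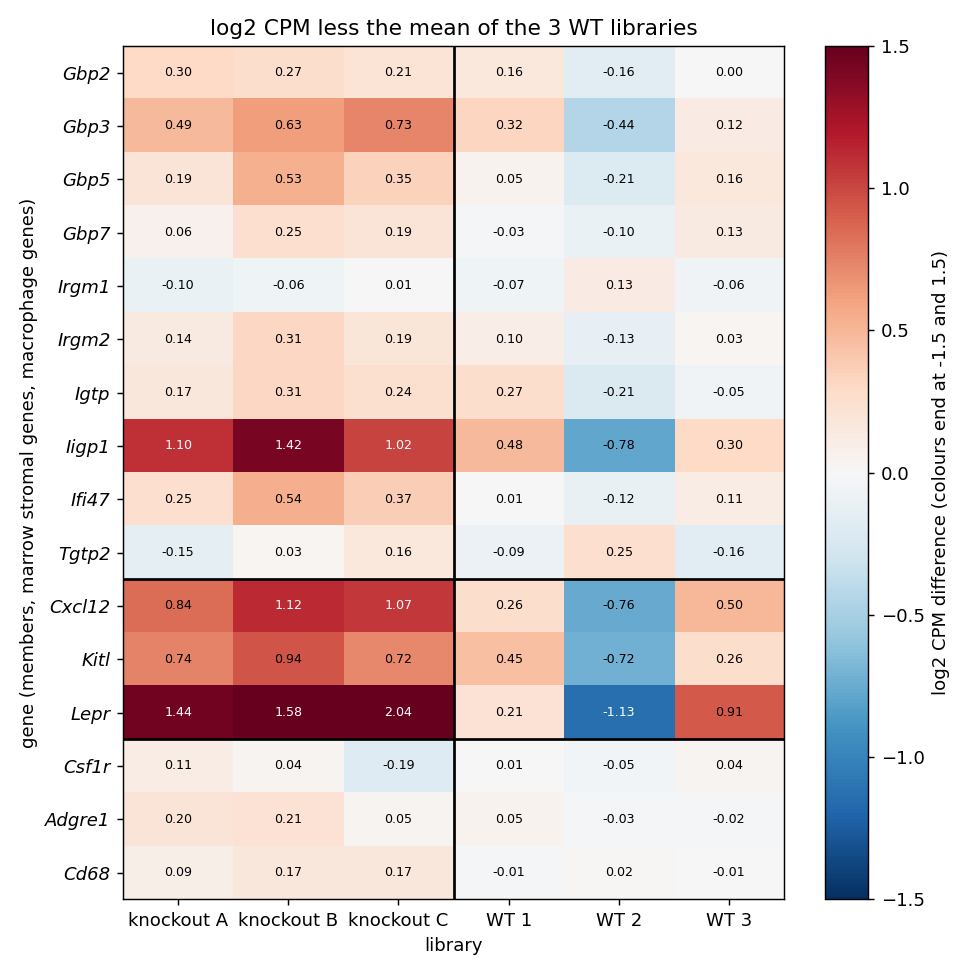
Log2 CPM of the 10 members, 3 marrow stromal genes and 3 macrophage genes in each library, less the mean of the 3 WT libraries, with red for higher and blue for lower values. In WT 2, Iigp1 is at -0.78 and Cxcl12 at -0.76, while in knockout B they are at 1.42 and 1.12. The stromal genes shown are the 3 of 7 listed markers with the largest log2 fold changes. The macrophage genes shown are 3 of 8 listed monocyte and macrophage markers. Those not shown include Cx3cr1 (log2 fold change -1.57), Ly6c2 (0.65) and Ccr2 (0.57).

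The ligand that is best known to induce these genes was not detected. Ifng had 0 counts in all 6 libraries, which allows up to 3 counts or 0.135 to 0.159 CPM per knockout library and 0.129 to 0.1504 CPM per WT library, for counting error only. Markers of T and NK cells, its usual sources, were few: 7 of 14 stayed under 10 counts in every library, Cd3e had 0 in all, and the summed level was 8.90 to 17.4 CPM in knockouts and 7.62 to 14.1 CPM in WT. Of the 5 tested, 4 had log2 fold changes above 0 and none passed the threshold. Cd4 held much of that sum and had a log2 fold change of -0.48. Of these 5, 2 lay wholly above WT in knockouts, against 11.5% of all genes tested. They were the NK cell genes Klrb1c (log2 fold change 2.39) and Eomes (2.15), at 11 to 33 counts per knockout library and 0 to 8 per WT library. These genes and the NK cell gene Nkg7 were chosen after their values were seen. Nkg7 was at 0.585, 3.14 and 2.16 CPM in knockouts A, B and C, against 0.351, 0.171 and 0.776 CPM in WT 1, 2 and 3, so that knockout A lay below WT 3 (adjusted p = 0.204, edgeR). Klrd1, another tested NK cell gene, also overlapped (log2 fold change 1.10), with 0.585 CPM in knockout A and 0.906 CPM in WT 3. The part of these NK cell genes in the members' values was not tested.

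Genes of interferon-gamma signalling act upstream of the members. Of the 12 listed, 11 were tested, none passed the threshold in either direction, and their median log2 fold change was 0.05. The receptor chain Ifngr1 was at 99.0 ± 9.14 FPKM in knockouts and 85.2 ± 13.4 FPKM in WT (SD, n = 3), and the kinase Jak1 at 54.8 ± 3.54 and 53.9 ± 3.14 FPKM. Irf1 had 9.14, 9.06 and 9.26 FPKM in knockouts A, B and C, against 8.44, 8.14 and 8.79 FPKM in WT 1, 2 and 3, which did not overlap (log2 fold change 0.12 ± 0.05 SE, edgeR adjusted p = 0.314). The Irf1 values were close together within each genotype. Of the 11 genes tested, 1 (Irf1) lay wholly above WT in knockouts, against 11.5% of all genes tested. Ifngr2, which is outside the rule for named genes, lay wholly below (log2 fold change -0.14). Of all 15478 genes tested, 1605 lay wholly below.

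Genes known to respond to type I interferon lay above 0 as a list. All 24 were tested and all 24 had positive log2 fold changes, with a median of 0.28, and 19 of them lay wholly above WT in knockouts, against 11.5% of all genes tested. Of the 24, 1 passed the threshold higher and none lower: Ifi27l2a rose to 201 ± 17.4 FPKM in knockouts, against 133 ± 9.46 FPKM in WT (SD, n = 3), a log2 difference of 0.60 ± 0.08 (SE) with an edgeR adjusted p = 0.0490. Its adjusted p was 0.0986 without knockout A, 0.240 without knockout B, 0.0973 without knockout C and 0.132 without WT 1. In the signalling list of type I interferon, 9 of 10 genes were tested and none passed, with a median of 0.10. The receptor chain Ifnar2 was at 38.2 ± 1.22 FPKM in knockouts and 34.4 ± 2.20 FPKM in WT, and the ubiquitin-like modifier Isg15 at 49.9 ± 6.11 and 38.0 ± 4.78 FPKM (SD, n = 3). Irf7, the factor that amplifies type I interferon, was chosen after its values were seen and had the smallest adjusted p of that list (log2 fold change 0.72 ± 0.12 SE, adjusted p = 0.0994, edgeR).

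Other interferon-inducible GTPases, which are not among the 10, gave a median log2 fold change of 0.27 over 13 tested genes of 17, and none passed the threshold. Of the 13, 6 lay wholly above WT in knockouts, against 11.5% of all genes tested. Among the 6, Gbp4 had only 4 to 20 counts per library. 9930111J21Rik2 was nearly tied, with 11.69 CPM in knockout C and 11.68 CPM in WT 1. Gm4951 had 16.7, 19.5 and 18.01 FPKM in knockouts A, B and C, against 11.7, 7.66 and 12.6 FPKM in WT 1, 2 and 3 (log2 fold change 0.77 ± 0.17 SE, adjusted p = 0.146, edgeR). As in Iigp1, WT 2 of Gm4951 was lowest and the genotypes did not overlap. Gm12250 was at 6.85 ± 0.915 FPKM in knockouts and 6.21 ± 0.922 FPKM in WT (SD, n = 3). Gbp2b, Gbp10, Gbp11 and Tgtp1 had at most 7 counts per library and were not tested.

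Other targets of interferon-gamma gave a median of 0.29 over 13 tested genes of 16, with none past the threshold. Of the 13, 8 lay wholly above WT in knockouts, against 11.5% of all genes tested. Psmb10, a subunit of the immunoproteasome, was at 25.04 ± 0.736 FPKM in knockouts and 22.4 ± 0.360 FPKM in WT, and Ifi35 at 19.5 ± 0.761 and 16.6 ± 1.29 FPKM (SD, n = 3). The ATG8 conjugation genes, which in mouse cells act in loading these GTPases onto vacuoles, had a median of 0.07 over 12 genes, none past the threshold, with Gabarap at 256 ± 8.29 FPKM in knockouts and 269 ± 13.05 FPKM in WT and the adaptor gene Sqstm1 at 131 ± 5.53 and 124 ± 7.35 FPKM. Inflammasome genes, which act after guanylate-binding proteins have opened bacteria, had a median of 0.13 over 8 tested genes of 9, none past the threshold. The pore-forming Gsdmd was at 21.3 ± 0.925 FPKM in knockouts and 20.2 ± 1.60 FPKM in WT, and the protease Casp1 at 18.4 ± 0.570 and 15.99 ± 1.19 FPKM (SD, n = 3).

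**Figure D5:**
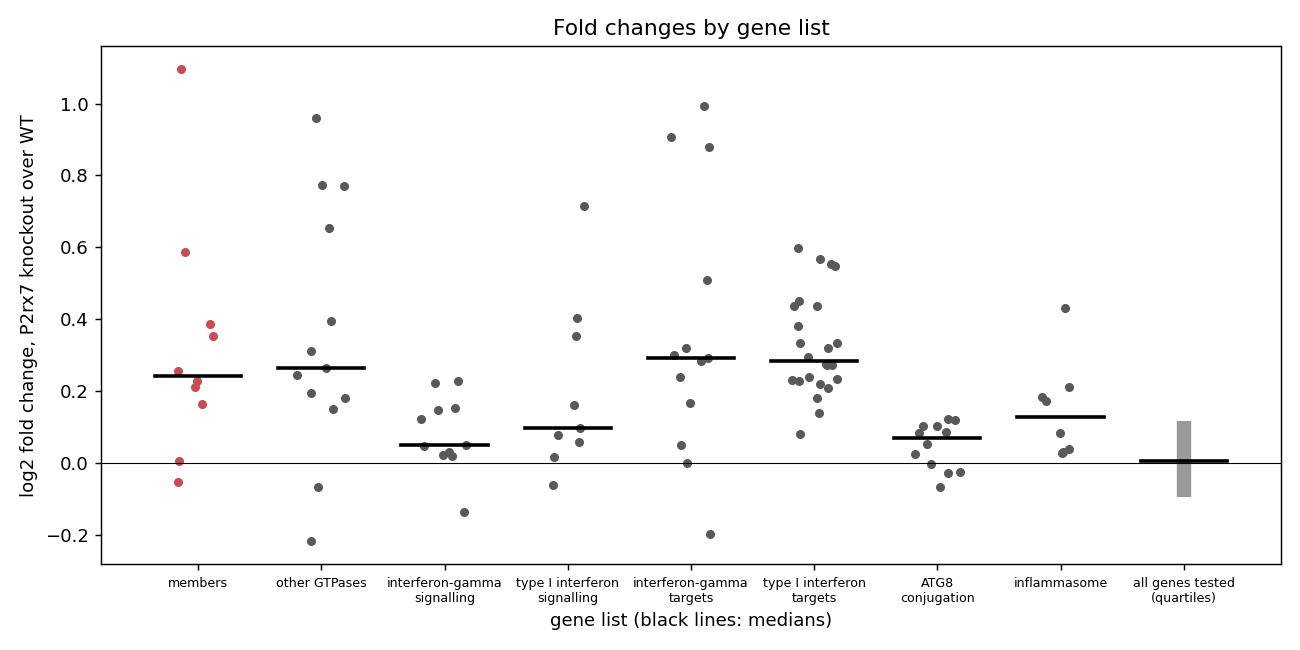
Log2 fold changes of P2rx7 knockout over WT (edgeR) for the tested genes of each list, 1 point per gene, with black lines for medians and a grey bar for the quartiles of all 15478 genes (-0.09 and 0.12). The median is 0.24 for the members, 0.28 for type I interferon targets and 0.05 for interferon-gamma signalling.

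Members varied together over the 6 libraries, apart from Irgm1 and Tgtp2. Against the mean of the members' standardised log2 CPM, which each member itself enters, Pearson's r was 0.84 to 0.96 for 8 members, -0.02 for Tgtp2 and -0.46 for Irgm1. Tested genes other than the members were ranked by likeness to this mean profile. Genes with Gm-number or Rik names and antigen receptor segments were left out. The 10 most alike had r of 0.984 to 0.992, among them Etfrf1, Dmac2l, Hcst, Uap1l1, Ap2m1, Stx16, Rbpjl, Slc22a18 and Nudt22. Hcst, a signalling adaptor of NK cells and other leukocytes, differed by 0.47 ± 0.16 on the log2 scale (SE, edgeR adjusted p = 0.219). In all 10, knockouts lay wholly above WT, against 11.5% of all genes tested. That follows largely from the ranking, since the mean profile itself carries the genotype contrast. With 6 libraries that share the genotype contrast, a high r is easily reached and describes these libraries only.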

How the data were processed

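The authors deposited raw counts and FPKM for 55291 genes in 6 libraries, in a table laid out like featureCounts output, per the file headers. Each deposited FPKM value is the count over exon length and a scaled library total (tolerance 1e-06, met by 100% of values above 0). The submitters' processing notes name the builds GRCm38 and mm10. Per the labels' protocols, 1.3 µg of total RNA went into each SMARTer library. Aligner, annotation and strand use: not given in the sources used here, and without strand a gene cannot be told from an antisense partner.

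Counts were tested with edgeR 4.0.16 (filterByExpr, TMM scaling, glmQLFit and glmQLFTest, two-sided) in R 4.3.3 on all 6 libraries. Genes tested were 15478, with Benjamini-Hochberg adjustment over all of them and a threshold of 0.05. CPM values are TMM-scaled. SE and 95% intervals are those implied by the test. The rule for named genes took all members and P2rx7, then from each list the genes past the threshold or else the 2 of highest FPKM, with Ifng and Irf1, and the 10 genes most like the members; some genes that the rule names are not reported here. Alternatives used limma 3.58.1, DESeq2 1.42.0, other filters and scalings, and each library left out. Members and lists were chosen with earlier results of these data known. P-values measure the spread between mice, and floors cover counting error only.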

Additional observations from a re-analysis of the deposited data

How the results depend on the processing

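No member passed the threshold in 13 of the 15 alternative settings. DESeq2 called 2 (Gbp3 at adjusted p = 0.0401 and Ifi47 at 0.0229), and edgeR without a filter (all genes with a count) called 3 (Gbp3, Ifi47 and Iigp1). Over all genes, 16 were called, against 506 of 19061 with DESeq2, 970 of 30301 with all genes with a count, 2 with limma on log2(FPKM + 0.1), 6 with limma voom, 0 in the libraries with Gh counts alone, 0 with the trace set as a term, and 0 to 172 when 1 library was left out. Of the other pathway genes 1 was called, against 18 with DESeq2, 24 with all genes with a count, 0 with limma on log2(FPKM + 1) or log2(FPKM + 0.1), voom, the Gh libraries alone or the set term, and 0 to 5 when 1 library was left out. The members' median was 0.17 to 0.35 when 1 library was left out. The log2 fold change of P2rx7 was -0.64 in the Gh libraries alone (adjusted p = 0.516), -0.64 with the set term (adjusted p = 0.112) and -0.69 to -0.65 when 1 library was left out. Tgtp2 was at -0.0031 with all genes with a count, -0.17 in the Gh libraries alone, -0.16 with the set term, -0.045 with the counts of Tgtp1 and Tgtp2 added and -0.075 to 0.14 when 1 library was left out. Left-out libraries gave -0.095 to 0.012 for Irgm1 and -0.012 to 0.076 for Jak1. The cause was not tested. With knockout A as the only knockout, it is assumed to vary like the WT libraries. No paired analysis was possible because the labels number the WT mice and letter the knockouts. Depth limits Tgtp2 most, with 73 to 108 counts per library.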
